A study of Mus musculus with 12 samples.

Results

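Genes that are imprinted or that mark the fetal liver were followed in adult mouse liver, 10 in all: H19, Igf2, Mir483, Afp, Gpc3, Meg3, Peg3, Cdkn1c, Plagl1 and Grb10. They were chosen by name, and the 10 rows of these genes were taken from a table of 55401 genes. The data are RNA-seq counts from 12 livers, 6 of iTgMir483 mice and 6 of control mice, all female and 15 weeks old, on a C57BL/6J background. The comparison asks how the transcriptome of the liver differs when the microRNA gene Mir483, which is normally transcribed with its host gene Igf2, is kept on after birth.

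The iTgMir483 mice carried 1 added copy of Mir483 at the Rosa26 locus under a Tet-off switch, which is active unless doxycycline is given. The study gave doxycycline through pregnancy and withdrew it at birth. The selection cassette of the transgene was deleted with CMV-Cre, which acts in all tissues from soon after fertilization, so the model is not restricted to the liver. The sample labels name the other group only as control, and which of these alleles the controls carried is not given there. To delete the cassette, the study crossed transgene-heterozygous males to CMV-Cre homozygous females, a cross in which every pup inherits CMV-Cre. For other measurements of this model the study calls the controls littermates. The genotype of the control livers sequenced is not stated. Each library was 1 liver of 1 group. The library labels of all 12 share the prefix CMVxmiR, with no batch named, and the total counts ran from 12244123 to 30431286. The 8 hepatocyte markers examined summed to between 123272 and 173342 CPM (counts scaled to a common library total) in controls and between 62667 and 135184 in iTgMir483 livers, and skeletal muscle and adipose markers each summed to at most 2.34 CPM in any library.

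Imprinted genes are transcribed mainly from the copy inherited from one parent. Igf2, a fetal growth factor, and H19, a long non-coding RNA, are reciprocally imprinted neighbours that share enhancers, and both are abundant in fetal mouse liver and shut down after birth. Afp, the main serum protein of the fetus, and Gpc3, a cell-surface proteoglycan, follow the same postnatal decline without being imprinted, and all of these can be re-expressed in tumour tissue. RNA counts do not tell the parental copies apart, so every value here is the sum of both.

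Mir483 lies in an intron of Igf2 and H19 holds a microRNA of its own, Mir675. The mature products of both genes are shown because the transgene supplies the first pair and H19 is the host of the second. Sequences are from RefSeq (GRCm38.p6, chromosome 7, minus strand), written 5′ to 3′, and capitals mark the seed, bases 2 to 8, by which a microRNA pairs with its targets. The 4 seeds differ from one another.
miR-483-3p (chr7:142654932-142654952): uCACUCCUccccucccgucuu
miR-483-5p (chr7:142654968-142654989): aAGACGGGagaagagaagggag
miR-675-3p (chr7:142577078-142577099): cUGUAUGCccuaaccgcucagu
miR-675-5p (chr7:142577112-142577133): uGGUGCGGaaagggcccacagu

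Of the 10 genes, 8 had enough reads to be tested across the transcriptome. Of these, 3 rose in iTgMir483 livers (Mir483, Plagl1 and Grb10), 2 fell (Meg3 and Peg3), and Afp, Gpc3 and Cdkn1c did not pass the test. Mir483 is the product of the transgene and passed the filter only through the iTgMir483 group, so its rise was fixed by the design. A gene was called changed at an adjusted p under 0.05 in edgeR's quasi-likelihood F-test and a fold change over 1.5. By this rule 11.1% of all 13205 tested genes changed, 8.41% upwards and 2.73% downwards. The median log2 fold change of the 8 genes was 0.52, against 0.01 over all tested genes. It was 0.41 over the 7 without the transgene product Mir483, a setting chosen after seeing the data, and -0.39 over the 4 genes left when at least 10 counts were required in every library, so it has no stable sign. H19 had too few reads to enter the model and was compared on its own, and Igf2 was at the floor in both groups, defined as 3 or fewer counts in every library. All values below are CPM after scaling of library sizes by the trimmed mean of M-values, unless stated. In bulk tissue, fewer cells of a type and less RNA per cell cannot be told apart.

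**Figure D1:**
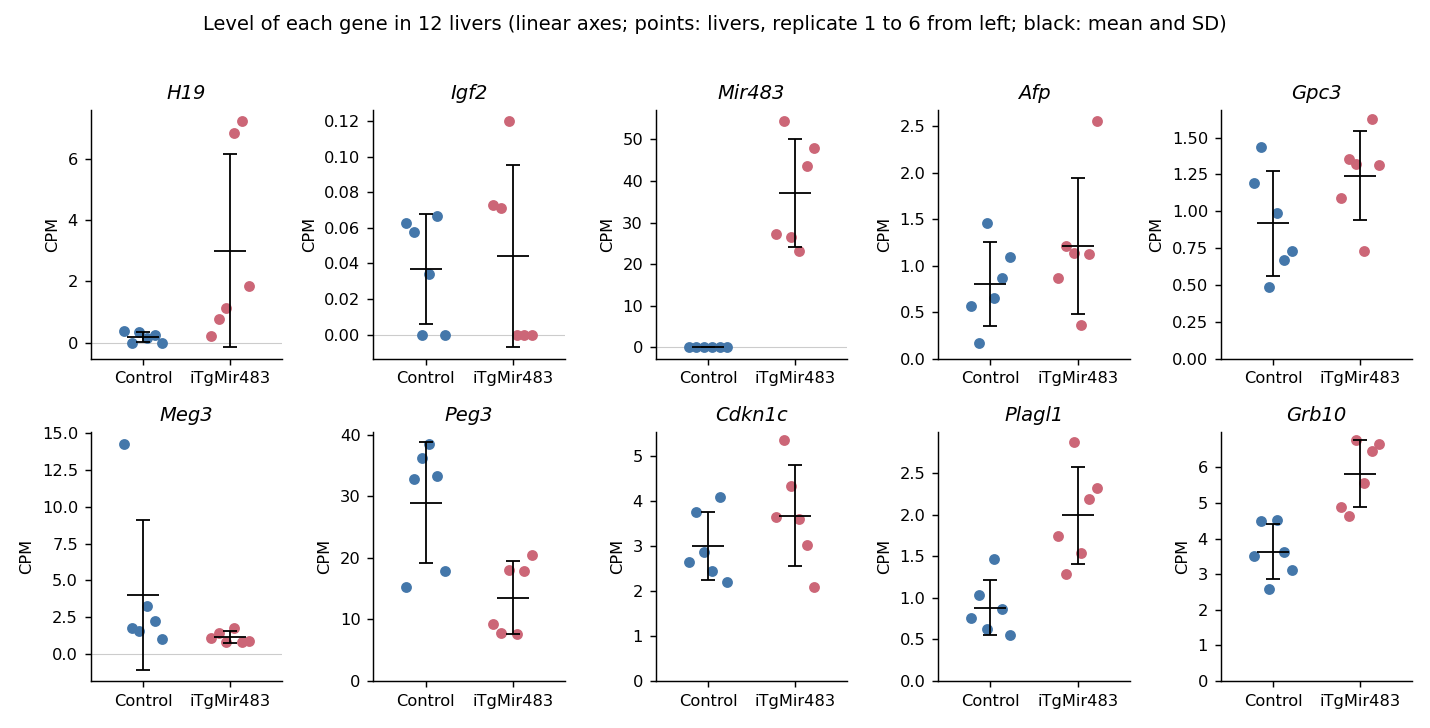
Level of each of the 10 genes (y axis, CPM, linear, a separate scale per gene) in 6 Control (blue) and 6 iTgMir483 livers (red); points are livers and black bars are the mean and SD. The points of the groups are separate for Mir483 and Grb10, and the high Control point for Meg3 is replicate 1 at 14.3 CPM.

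Mir483, the transgene's product, was read from its 73-base hairpin (chromosome 7, 142654924 to 142654996). All 6 control livers had 0 counts. In iTgMir483 livers the level ran from a lowest of 23.3 CPM through a median of 35.4 to a highest of 54.3 CPM. No liver of either group overlapped the other. The mean of 37.1 ± 13.1 CPM (SD, n = 6) was at least 194-fold higher than the floor of 3 counts per control library, 0.191 CPM on average. This bound was computed apart from the edgeR fit. The adjusted p of that fit, 4.61e-06, is no support, as the rise was fixed by the design. The libraries were made from poly(A) RNA, so these counts come from longer transcripts that hold the hairpin and not from the mature microRNAs, and the added and the endogenous copy cannot be told apart.

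The host gene Igf2 (chromosome 7, 142650766 to 142666816, minus strand) was at the floor in both groups. It had between 0 and 1 counts in control libraries and between 0 and 2 in iTgMir483 libraries, 4 in each group in all, so no fold is given. However, 62.8% of the exon bases of Igf2 (3596 of 5723) are also exons of Gm49394 on the same strand, and a counter that leaves out reads falling in more than 1 gene would drop them. Gm49394 itself had 0 counts in every library. The Igf2 row is therefore not a measure of the level of Igf2 RNA.

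The 3′ untranslated region of Igf2 holds 1 match to the miR-483-3p seed (AGGAGTG, the reverse complement of bases 2 to 8, searched on the transcript strand in the longest GENCODE M21 transcript). In protein-coding genes only this region was searched. The study also predicts a conserved miR-483-3p site in a 5′ untranslated exon of Igf2, which was not searched here. It is shown because Igf2 is both the host of the microRNA and the only one of the 7 protein-coding genes among the 10 with a match. Capitals mark the match, which lies at chr7:142651891-142651897.
Igf2: cagaagttctgAGGAGTGgagggggcgtg
The same match was present in the 3′ untranslated regions of 12.6% of the 12110 tested genes that have one, and in 25.1% of the 3606 whose region was at least 2000 bases long. The match to miR-483-5p (CCCGTCT) was in none of the members' regions and in 3.26% of the tested genes' regions.

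H19 (chromosome 7, 142575529 to 142578143, minus strand) varied widely among iTgMir483 livers. In controls it ran from 0 through a median of 0.219 to 0.376 CPM. In iTgMir483 livers it ran from 0.218 through a median of 1.5 to 7.21 CPM. Of the 6 iTgMir483 livers, 5 were above the highest control, and the remaining one, replicate 1, lay inside the control range. Replicates 4 and 5 stood above the rest, at 6.81 and 7.21 CPM, and the other four were at 1.86 CPM or lower.

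The mean rose from 0.194 ± 0.166 to 3.0 ± 3.15 CPM (SD, n = 6 each), a ratio of 15.5. The ratio of the medians was 6.83, and the ratio of the means without the 2 highest iTgMir483 livers was 5.16. On the log2(CPM + 0.5) scale, which understates the change of a low gene, the difference was 1.84 (exact two-sided permutation test over all assignments of the 12 livers, p = 0.00866, where the smallest possible is 0.00216). This exact test stands outside the adjustment over all genes. In the same model without a filter on low counts, H19 had an edgeR adjusted p of 0.00184. Mir675 had 0 counts in all libraries, but its 84 bases lie within H19 exons on the same strand, so reads there may have been left out of the counting, as for Igf2, and its row is not a measure of its level.

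The liver with the second highest H19 also had the most macrophage transcripts. The 8 macrophage markers examined, among them Adgre1, Csf1r and Clec4f, summed to between 282.7 and 405.0 CPM in controls and between 430.5 and 1227 CPM in iTgMir483 livers, with the 1227 in replicate 4. Of the 8, 7 passed the test upwards, beside 8.41% of all tested genes. Replicate 5, with the highest H19, had 592.5 CPM. The part of these cells in the H19 values was not tested, and the H19 difference was 1.52 without replicate 4 and 1.5 without replicate 5.

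**Figure D2:**
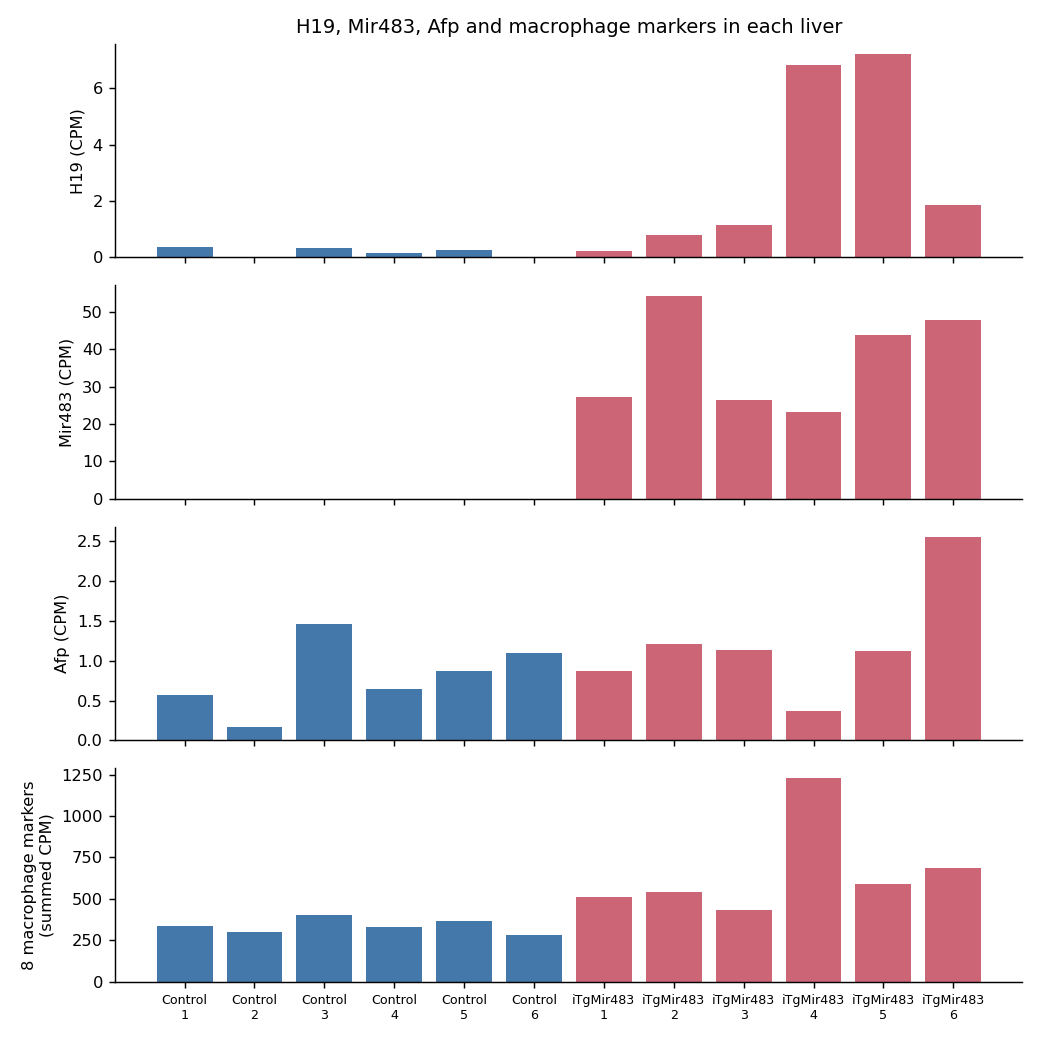
Level in each of 12 livers (x axis, Control blue, iTgMir483 red) of H19, Mir483 and Afp in CPM and of 8 macrophage markers in summed CPM (linear bars from 0). The 2 high H19 bars, 6.81 and 7.21 CPM, are iTgMir483 replicates 4 and 5; replicate 4 has the lowest Mir483 and Afp of its group and the highest macrophage sum.

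Across all 12 livers, the 5 genes whose levels were most like those of H19 among 12489 compared were Slc43a2 (Pearson's r = 0.95), Sh3pxd2b (0.93), B430306N03Rik (0.92), Cmklr1 (0.92) and Ms4a6c (0.92). These correlations share the libraries and the group difference, and within groups they were between 0.83 and 0.90. All 5 rose in iTgMir483 livers, from a log2 fold change of 0.66 for Slc43a2 to 1.61 for Sh3pxd2b.

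Afp (chromosome 5, 90490737 to 90508907) stayed low in both groups. It ran from 0.173 through 0.760 to 1.46 CPM in controls, and from 0.366 through 1.13 to 2.55 CPM in iTgMir483 livers (lowest, median and highest). The groups overlapped over most of their range, and the highest liver was iTgMir483 replicate 6. The log2 fold change was 0.63 with a standard error of 0.446 (95% interval -0.33 to 1.58, edgeR adjusted p = 0.35). Replicate 4, second highest for H19, had the lowest Afp of its group. Among 5 genes most like Afp over 12 livers were Arhgef7 (r = 0.91), Pomk (0.90), Gm31333 (0.86), S100a10 (0.86) and Ajuba (0.85), and none of them passed the test of the groups.

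Gpc3 (chromosome X, 52272426 to 52613950), which binds growth factors at the cell surface, was measured at 0.918 ± 0.356 CPM in controls and 1.24 ± 0.302 CPM in iTgMir483 livers (SD, n = 6 each). Controls ran from 0.488 through 0.862 to 1.44 CPM and iTgMir483 livers from 0.733 through 1.32 to 1.63 CPM, so the ranges overlapped. On the log2 scale the fold change was 0.41 with a standard error of 0.277 (95% interval -0.18 to 1.01, edgeR adjusted p = 0.319). Reads per library were between 3 and 33 for Afp and between 7 and 29 for Gpc3, and changes inside these intervals are not excluded. Plagl1, with between 6 and 48 reads, passed the test. The parts of read depth and of spread between livers in these intervals were not tested.

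**Figure D3:**
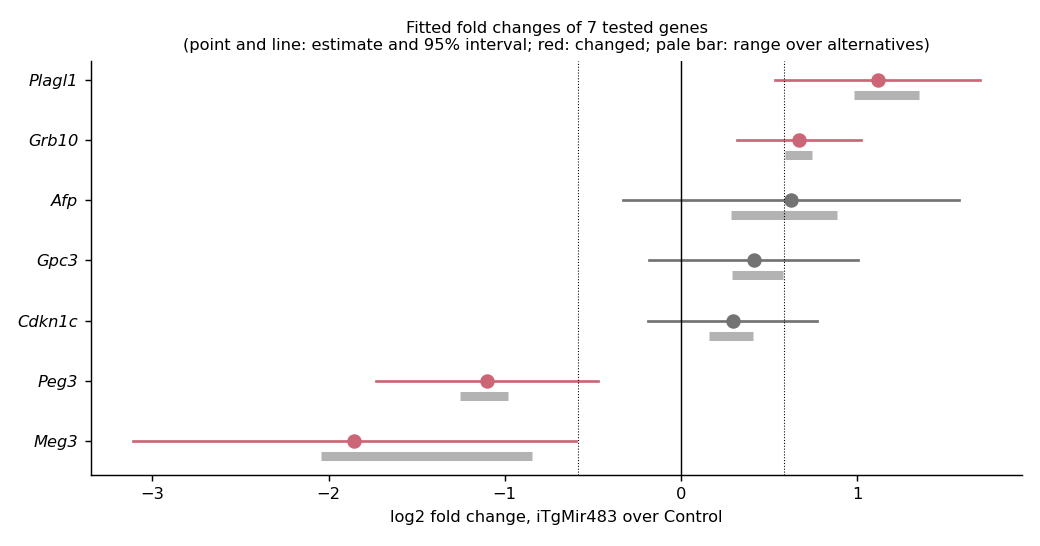
Log2 fold change of iTgMir483 over Control (x axis) for the 7 tested genes other than Mir483; points and lines are the edgeR estimate and its 95% interval, red where changed, and pale bars are the range over the alternative settings. Dotted lines mark a fold of 1.5; only Meg3 has a pale bar wider than 1 log2 unit, from -2.04 to -0.85.

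Grb10 (chromosome 11, 11930508 to 12038683), an adaptor that dampens signalling from the insulin and Igf1 receptors, rose. Controls ran from 2.58 through 3.56 to 4.51 CPM and iTgMir483 livers from 4.64 through 6.01 to 6.78 CPM. Every iTgMir483 liver was above every control, which was the case for 7.92% of tested genes in either direction. Its log2 fold change was 0.67 with a standard error of 0.165 (edgeR adjusted p = 0.0127).

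Plagl1 (chromosome 10, 13060504 to 13131694), a zinc finger transcription factor expressed from the paternal copy, rose too. It ran from 0.549 through 0.812 to 1.47 CPM in controls and from 1.28 through 1.97 to 2.88 CPM in iTgMir483 livers. The ranges met at their edges, with control replicate 4 above iTgMir483 replicate 2. This was a log2 fold change of 1.12 with a standard error of 0.272 (edgeR adjusted p = 0.0120).

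Cdkn1c (chromosome 7, 143458339 to 143461050), the cell cycle inhibitor p57, did not pass the test. It ran from 2.19 through 2.75 to 4.09 CPM in controls and from 2.09 through 3.62 to 5.35 CPM in iTgMir483 livers. The lowest liver of all belonged to the iTgMir483 group and so did the highest. The log2 fold change was 0.29 with a standard error of 0.224 (95% interval -0.18 to 0.77, edgeR adjusted p = 0.382). Part of Cdkn1c (30.7% of its exon bases) lies opposite an antisense gene, Gm44732, which had at most 2 counts in any library.

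Peg3 (chromosome 7, 6703892 to 6730431), a zinc finger gene expressed from the paternal copy, fell. Controls ran from 15.2 through 33.0 to 38.5 CPM and iTgMir483 livers from 7.69 through 13.6 to 20.5 CPM. Control replicates 1 and 6, at 15.2 and 17.9 CPM, lay among the iTgMir483 livers, and the other four controls were above all of them. This gave a log2 fold change of -1.10 with a standard error of 0.294 (edgeR adjusted p = 0.0189). Its 3′ untranslated region of 3614 bases held no match to either miR-483 seed.

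Meg3 (chromosome 12, 109541001 to 109571726), a maternally expressed non-coding RNA of the Dlk1 and Dio3 domain, had the largest fitted decrease of the 8 tested genes, and that value rested on few livers. Controls ran from 1.01 through 2.0 to 14.3 CPM and iTgMir483 livers from 0.780 through 0.972 to 1.76 CPM. The 14.3 CPM belonged to control replicate 1, the next control was at 3.25 CPM, and the remaining 4 controls ran from 1.01 to 2.21 CPM, overlapping the iTgMir483 livers. The log2 fold change was -1.85 with a standard error of 0.587 (edgeR adjusted p = 0.0406). Without control replicate 1 it was -0.85 with an adjusted p of 0.0696, and limma-voom on all 12 livers gave -1.34 with an adjusted p of 0.114.

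Rian, the next non-coding RNA of the same domain, was also highest in control replicate 1, at 6.21 CPM. The other controls had a highest of 0.633 CPM and the iTgMir483 livers ran from 0.125 to 0.655 CPM, which overlapped. Over the 12 livers Meg3 and Rian had a Pearson's r of 0.88, and 0.35 without control replicate 1, given as a description. Rian was too low to be tested. Dlk1 and Rtl1, the protein-coding genes of the domain, were at the floor in both groups.

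**Figure D4:**
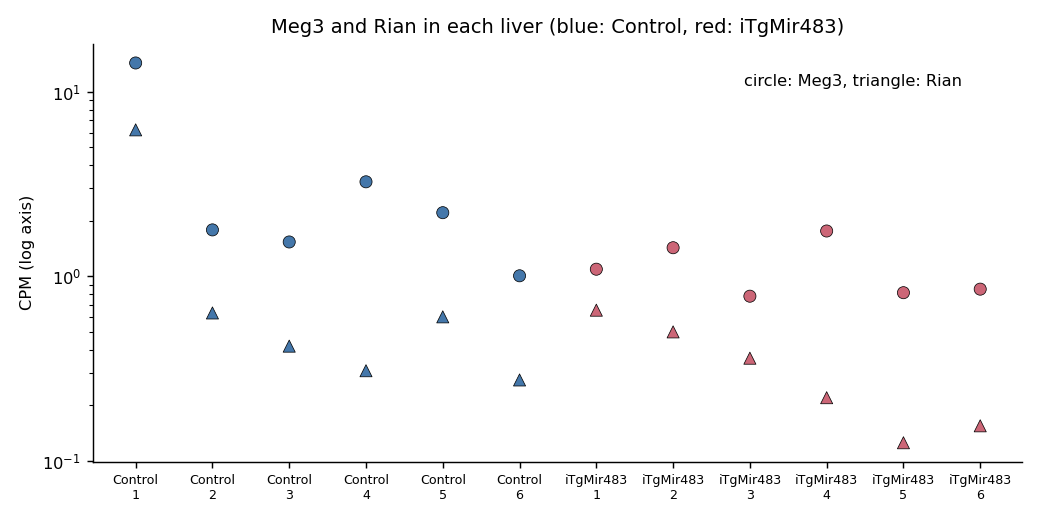
Level of Meg3 (circles) and Rian (triangles) in each of 12 livers (y axis, CPM, log axis; Control blue, iTgMir483 red). Control replicate 1 has the highest of both, at 14.3 and 6.21 CPM.

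The longest Meg3 transcript in GENCODE M21, 14548 bases, holds 2 matches to the miR-483-3p seed and none to miR-483-5p. They are shown because Meg3 was the only tested gene of the 10 with a match, at chr12:109561346-109561352 and chr12:109561416-109561422 on the plus strand, with the match in capitals.
Meg3 first: tattgaaataaAGGAGTGacagaaaggat
Meg3 second: agcagccagtaAGGAGTGgcccatgggac
In transcripts of at least 5000 bases from genes without a 3′ untranslated region, 47.9% of 236 held this match.

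Per kilobase of exon, which allows genes to be set side by side, the order of levels in controls was led by Peg3 at 2.17 ± 0.740 CPM per kilobase and Cdkn1c at 1.47 ± 0.370. Grb10 (0.40 ± 0.0838), Gpc3 (0.341 ± 0.132), Afp (0.238 ± 0.133) and Meg3 (0.222 ± 0.282) followed within each other's spread, and Plagl1 (0.113 ± 0.0429) and H19 (0.0789 ± 0.0676) were lowest. The place of Meg3 rested on control replicate 1, without which it was at 0.108 ± 0.0466 (n = 5), below Plagl1. In iTgMir483 livers Cdkn1c was first (1.80 ± 0.546), H19 (1.22 ± 1.28) and Peg3 (1.02 ± 0.441) were next and did not differ beyond their spread, and Meg3 was last at 0.0619 ± 0.0219. H19 thus moved from the eighth place to the second by this measure, with an SD as large as its mean. That second place rested on replicates 4 and 5, without which the ratio of H19 means fell from 15.5 to 5.16. Errors are SD with n = 6, and Mir483 and Igf2 were left out of this order.

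Among the 6 iTgMir483 livers, no relation between Mir483 and the 8 other detected genes passed the test. The smallest raw p was that of Afp (Pearson's r = 0.71, exact permutation p = 0.0611; Spearman's rho = 0.77, exact permutation p = 0.103), with a Benjamini-Hochberg adjusted p of 0.394 over the 8 genes for Pearson's r. These correlations are on the log2(CPM + 0.5) scale. Without replicates 2 and 4, the 2 livers farthest from the median of Mir483 on that scale, r for Afp was 0.73. For H19 it was -0.04 (exact permutation p = 0.947; Spearman's rho = -0.20, exact permutation p = 0.714), and 0.73 without those 2 livers, one of which, replicate 4, has the second highest H19. For Cdkn1c r went from -0.13 over the 6 livers to -0.91 over the remaining 4, so values over 4 livers moved in both directions.

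Other genes of the same neighbourhoods were mostly low or did not pass the test. On the Igf2 and H19 segment of chromosome 7, 8 of 17 genes listed were tested, and only Mrpl23 and Mir483 rose. The added copy of Mir483 lies at Rosa26, so reads of Mir483 are no measure of this segment. Mrpl23, a mitochondrial ribosomal protein gene beside H19, ran from 3.33 to 4.43 CPM in controls and from 4.95 to 7.62 CPM in iTgMir483 livers, without overlap. Its log2 fold change was 0.64 with a standard error of 0.130 (edgeR adjusted p = 0.00454). Cd81, Kcnq1, Kcnq1ot1, Cdkn1c, Slc22a18 and Lsp1 did not pass the test.

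Of 50 imprinted genes other than the 10, 27 were tested and 12 were at the floor in both groups. Mest, Airn and Cobl rose and Blcap fell, which is 14.8% of those tested, beside 11.1% of all genes, with a median log2 fold change of 0.07. With no filter on low counts, 47 were tested, 1 rose and 1 fell, and Mest lost its call. Mest, a paternally expressed gene of the hydrolase family, went from 1.53 ± 0.221 to 2.53 ± 0.564 CPM (SD, n = 6 each), a log2 fold change of 0.71 (edgeR adjusted p = 0.0172). Blcap went from 28.7 ± 5.30 to 13.6 ± 2.80 CPM without overlap, a log2 fold change of -1.08 (edgeR adjusted p = 0.000581).

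Airn, the non-coding RNA that runs antisense to Igf2r, had a log2 fold change of 1.56 (edgeR adjusted p = 0.00905). Igf2r itself, the receptor that clears Igf2, had a log2 fold change of 0.57 (adjusted p = 0.0543). The strand setting of the counting is not stated, so reads of Airn and Igf2r cannot be told apart with certainty. Cobl, the neighbour of Grb10, had a log2 fold change of 0.59, close to the threshold, and lost its call in 10 of 19 alternative settings. Ube3a and Peg13 had adjusted p under 0.05 with fold changes under 1.5 (log2 -0.50 and 0.37).

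Fetal and oncofetal liver genes other than the 10 split into those that rose and those at the floor. Of 18 in the table, 9 were tested and all 9 rose, with a median log2 fold change of 1.41. Another 7, among them Lin28b, Igf2bp1, Igf2bp3, Sall4 and Dlk1, were at the floor in both groups, and Mdk and Igdcc4 were not tested. Since a gene low in controls passes the filter only through the group where it is high, this count is no share of the list. With at least 10 counts required in every library, 6 of the listed genes were tested and all 6 rose. Over all genes 918 of 11714 rose in that setting, and 8.41% rose in the main setting. The list was chosen with earlier results of these data known, so neither count is a test of these genes as a group.

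Spink1, a secreted trypsin inhibitor, was near the floor in controls (0 to 0.288 CPM) and between 0.660 and 2.47 CPM in iTgMir483 livers, without overlap. Igf2bp2, which binds Igf2 mRNA, went from 1.38 ± 0.458 to 3.92 ± 1.34 CPM, also without overlap (log2 fold change 1.49, edgeR adjusted p = 0.00228). Hmga1, a chromatin protein of growing cells, had a log2 fold change of 0.81 (adjusted p = 0.000610). Cd24a and Epcam, surface proteins that also mark bile duct and progenitor cells, had log2 fold changes of 1.61 and 1.41 (adjusted p = 0.00203 and 0.00490).

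The remaining 4 were metabolic genes. Pkm and Hk2, glycolytic enzymes replaced by other forms in adult hepatocytes, had log2 fold changes of 1.09 and 1.33. Scd2, a fatty acid desaturase, and Lpl, the lipoprotein lipase, had log2 fold changes of 0.91 and 1.49 (edgeR adjusted p of the 4 between 0.00110 and 0.00782). Igdcc4, untested, was at 0.335 CPM or lower in controls and reached 10.8 CPM in iTgMir483 replicate 4, the liver with the highest macrophage sum. Bile duct and progenitor markers moved in the same livers: 4 of 7 tested rose (Krt7, Epcam, Spp1 and Prom1), beside 8.41% of all tested genes. The 8 markers summed to between 40.0 and 65.0 CPM in controls and between 77.5 and 119.6 CPM in iTgMir483 livers. Their part in these values was not tested.

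**Figure D5:**
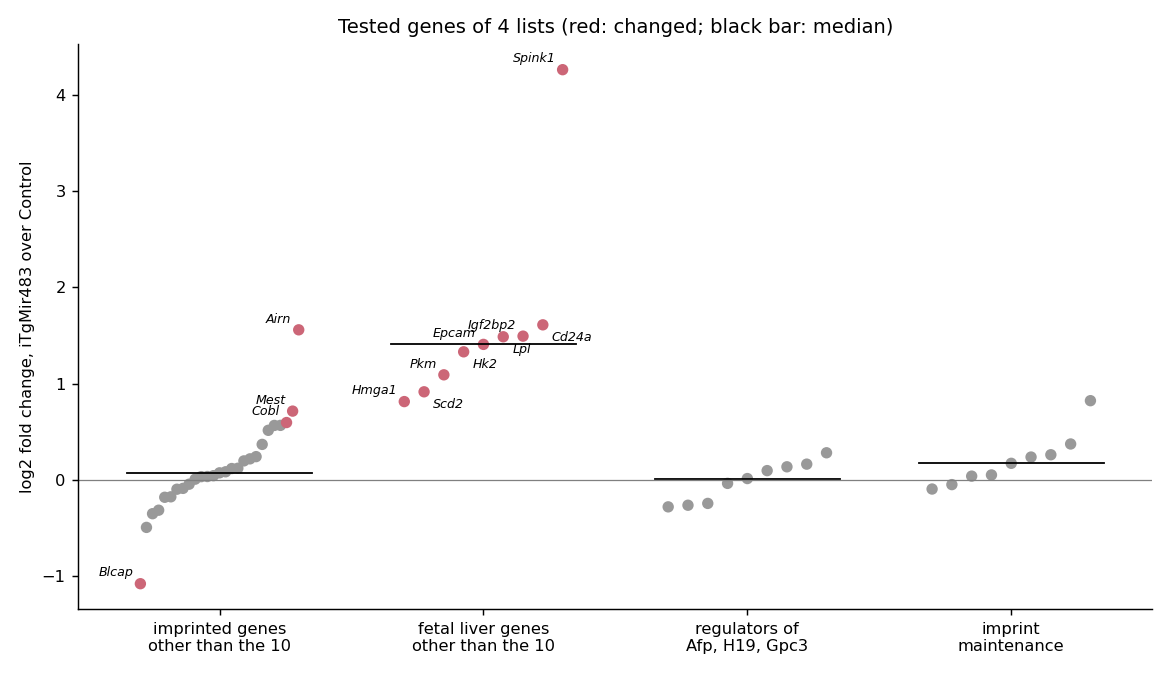
Log2 fold change of iTgMir483 over Control (y axis) of each tested gene in 4 lists (x axis); red points changed, grey points did not pass the test, and black bars are medians, 0.07, 1.41, 0.01 and 0.17 from left to right. The 9 tested fetal genes are all red and above 0.

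Regulators known to silence or drive Afp, H19 and Gpc3 did not pass the test. None of 9 changed, with a median log2 fold change of 0.01. Zhx2, the repressor of Afp, H19 and Gpc3, was at 15.4 ± 4.09 CPM in controls and 17.2 ± 3.78 CPM in iTgMir483 livers (log2 fold change 0.16, edgeR adjusted p = 0.553). Zbtb20 and Zfhx3, also repressors of Afp, had log2 fold changes of 0.09 and 0.13. Of 13 genes that set or maintain imprints, 9 were tested and none changed, with a median of 0.17. Dnmt3a, a DNA methyltransferase, had an adjusted p of 0.0223 at a log2 fold change of 0.37, under the fold threshold.

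Grb10 belongs with the receptors it acts on, and among 16 insulin and Igf signalling genes 2 rose and 3 fell. Of all tested genes, 8.41% rose and 2.73% fell. Igf1r, the receptor for Igf1 and Igf2, went from 4.42 ± 0.663 to 9.56 ± 2.02 CPM, a log2 fold change of 1.11 (edgeR adjusted p = 0.000612). Igf1, the postnatal counterpart of Igf2, fell by 1.51 on the log2 scale (adjusted p = 0.000371), Igfbp2 by 1.03 (adjusted p = 0.0175) and Igfals, which holds Igf1 in the circulation, by 0.81 (adjusted p = 0.00985). The insulin receptor gene Insr had a log2 fold change of 0.02.

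Markers of other cell types mostly stayed below the threshold. All 8 stellate markers had positive log2 fold changes, with a median of 0.31, as did 4 of 8 endothelial markers. The stellate markers Hgf and Rgs5 had adjusted p under 0.05 in all 19 alternative settings. They passed the fold threshold in 3 and 1 of these. Of 8 stellate and 8 endothelial markers none changed, 0 of 3 tested mesothelial markers changed, and of 7 tested erythroid markers 1 fell, Klf1, which kept its call in 11 of 19 alternative settings and lost it when any of 8 libraries was left out (control replicate 1, 2, 3, 4 or 6 or iTgMir483 replicate 3, 5 or 6). With single libraries left out, the count of erythroid markers that rose was between 0 and 2. Hepatocyte markers counted 2 of 8 lower, the urea cycle genes Cps1 and Ass1, beside 2.73% of all tested genes.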

How the data were processed

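The authors deposited raw counts, whole reads summed per Ensembl gene. Per the study's methods they made stranded poly(A) libraries, sequenced paired-end reads, and used STAR for both the alignment to GRCm38 and the counting. The strand setting is not given in the sources used here. Symbols, exons and transcripts came from GENCODE M21 (GRCm38, another release than the authors used); 55141 of 55401 identifiers had a symbol.

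Low genes were removed with filterByExpr, leaving 13205, and libraries were scaled by TMM. The test of iTgMir483 against Control was the quasi-likelihood F-test of edgeR 4.0.16 (R 4.3.3) with Benjamini-Hochberg adjustment over all tested genes and no covariates. Standard errors are |log2 fold change| over root F. H19, under the filter, was compared by exact permutation of mean log2(CPM + 0.5). DESeq2 1.42.0 and limma 3.58.1 (voom) were alternatives, with other filters, scalings and pseudocounts and each library left out. No 2 libraries agreed within sampling noise (smallest chi-square per gene 15.6). Floors cover counting error only, as the reads carry no molecular identifiers. Each library is a separate mouse. The 10 genes and the gene lists were chosen with earlier results of these data known. Named are the 10 genes, the 5 genes most like H19 and Afp, and listed genes that passed the test or neighbour a member; other listed genes were named after their values were seen.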

Additional observations from a re-analysis of the deposited data

Results flagged for a closer look

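One value stood apart within its group. Meg3 in control replicate 1 was at 14.3 CPM, and the other 5 controls lay between 1.01 and 3.25 CPM. The gap to the nearest control took up 0.831 of the whole range, above Dixon's 95% critical value for 6 samples. In 17 groups examined this way chance gives about 0.85 values above that cut, so a count of 1 is near what chance gives. This count does not weigh how far above the cut 0.831 lies, so it does not show the Meg3 value to be ordinary. Rian, of the same domain, was also highest in control replicate 1, at 6.21 CPM against at most 0.633 CPM in the other controls.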

How the results depend on the processing

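Of the 10 genes, 5 changed, 3 higher (the transgene product Mir483 among them) and 2 lower. No called gene changed sign under the alternatives run. With at least 10 counts in every library, 3 changed and 1 was higher, because Mir483 and Plagl1 were then not tested, and the median log2 fold change of those tested turned from 0.52 to -0.39. The lower count was 1 with limma-voom and 1 without both replicate 1 libraries, and between 1 and 2 when each library was left out in turn; in each case the call lost was that of Meg3. It was lost without control replicate 1 or 4 or iTgMir483 replicate 1, 2, 3, 5 or 6, at log2 fold changes between -1.94 and -0.85. The cause was not tested. Peg3 and Grb10 kept their calls in 19 of 19 alternatives, and Plagl1 in the 18 where it was tested. H19 was also called, giving 4 higher, with no filter on low counts and in the 8 settings with libraries left out where it passed the filter (without any one control, without iTgMir483 replicate 1, and without both replicate 1 libraries). H19 had at most 6 counts in any control, so it passed the filter there only through the iTgMir483 group. Those 8 calls are therefore no separate support for its rise. The H19 difference ran from 1.5 to 2.18 with each library left out (exact permutation p from 0.00216 to 0.0260), and from 1.38 to 2.88 over pseudocounts of 1 and 0.1.

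Replicate numbers are shared between the groups, and the labels name no pairing. Same-numbered libraries had correlations of their deviations between 0.0252 and 0.4705, and 2 of 6 were over 0.1. Control libraries 2, 3, 4 and 6 correlated better with a library of another number. Replicates 1 and 5, at 0.4705 and 0.1824, had no better match with another number. Whether same-numbered libraries share a litter or a batch was not tested. With the replicate number as a block, 5 members changed, 3 higher and 2 lower, and 1530 genes changed in all, against 1470 without it. Reads were few for Afp and Gpc3, at most 33 in any library, and for H19, at most 6 in any control.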
